A study of Homo sapiens with 12 samples.

Results

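The genes described here make, move or use lactate and pyruvate: the lactate dehydrogenase genes LDHA, LDHB, LDHC and LDHD, the monocarboxylate carrier genes SLC16A1, SLC16A3, SLC16A4 and SLC16A7, the carrier partner gene BSG, and MPC1 of the mitochondrial pyruvate carrier. Of these 10 genes, 8 had a probe set with exactly 1 gene symbol, out of 18417 such genes on the array. SLC16A1 and SLC16A3 had none in the probe annotation used here and were not analysed here. The family was listed by name, with earlier results of these data known. Its probe sets were to be selected on the mean over all 12 arrays. Each of the 8 genes had a single probe set, so this selection removed nothing. RNA came from 2 human pancreatic ductal adenocarcinoma cell lines and a cisplatin-resistant derivative of each, 3 samples per group. AsPC1-R was maintained in 1.67 µM cisplatin and set against its parent AsPC1, and BxPC3-R was maintained in 0.60 µM cisplatin and set against its parent BxPC3. Cisplatin damages DNA by forming platinum crosslinks. All groups grew in RPMI medium with serum, and the derivatives were without drug for their last subculture, so no group was under cisplatin when RNA was taken. Each line has 1 derivative, so an effect of resistance and any other property of that derivative cannot be told apart. Nothing in the labels says that the 3 samples of a group were separate cultures, and the p-values then measure the spread between these samples, which may be technical.

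Lactate dehydrogenase interconverts pyruvate and lactate. The enzyme is a tetramer of A and B subunits, encoded by LDHA and LDHB. Tetramers rich in A are the form typical of glycolytic tissue, and tetramers rich in B the form typical of tissue that takes up and oxidises lactate, such as heart. Lactate and pyruvate cross the plasma membrane with a proton through monocarboxylate carriers of the SLC16 family, several of which need a glycoprotein partner, basigin (BSG) or embigin (EMB), to reach the membrane. Pyruvate enters the mitochondrion through a carrier built from MPC1 and MPC2. Tumour cells commonly make much lactate even with oxygen present.

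Values are log2 expression levels as the submitters deposited them, so a step of 1 is a doubling of signal, and levels of different genes are not compared as amounts of RNA. Array medians ran from 6.48 to 6.65. Precision is set by having 3 arrays per group. As a guide to the level that an absent gene can show, SMAD4 and CDKN2A, both known to be homozygously deleted in BxPC3, read 4.43 to 4.75 and 5.51 to 6.00 in BxPC3-R and 4.14 to 5.01 and 6.11 to 6.33 in BxPC3. These readings differ between the 2 probe sets, so they are a rough guide only, and the background of another probe set may be higher or lower. A difference to or from a level under 6.33, the highest of them, is treated here as uncertain in size. The 5 epithelial markers EPCAM, KRT8, KRT18, KRT19 and CDH1 averaged 9.80 or more in every group, and none of the 4 measured leukocyte markers reached 6.554, the median of all values, in any group. Of 5 fibroblast markers 2, 3, 1 and 1 reached it in AsPC1-R, AsPC1, BxPC3-R and BxPC3, with highest means of 10.51, 11.55, 7.42 and 7.33. Of 5 endothelial markers 0, 0, 1 and 3 reached it, with highest means of 6.35, 6.18, 6.67 and 9.34. The part of such cells in any result was not tested. BxPC3 replicate 2 stood apart. At the 50 genes that most exceeded BxPC3-R in AsPC1, this array was the highest of the 3 BxPC3 arrays in 50 of 50 cases, by a median of 0.83 over the other BxPC3 arrays. SLC16A4 is 1 of those 50 genes, and its parental line difference and its change in BxPC3-R are given with and without that array.

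Between the parental lines the family differed most at LDHB. LDHB is on chromosome 12, at 21635342 to 21657842 in GRCh38.p14, and LDHA on chromosome 11, at 18394563 to 18408425. LDHC, the testis subunit, lies on the same chromosome as LDHA, at 18412318 to 18452063. LDHD, a mitochondrial D-lactate dehydrogenase of separate descent, is on chromosome 16 at 75111864 to 75116780. The 250 bases before the start of LDHA and of LDHB are shown because the first gene read nearly alike in all groups and the second was high in one line and low in the other. The sequences are those of RefSeq for GRCh38.p14, read 5′ to 3′ on the gene's strand, with each CG in capitals.
LDHA, chr11:18394313-18394562, plus strand: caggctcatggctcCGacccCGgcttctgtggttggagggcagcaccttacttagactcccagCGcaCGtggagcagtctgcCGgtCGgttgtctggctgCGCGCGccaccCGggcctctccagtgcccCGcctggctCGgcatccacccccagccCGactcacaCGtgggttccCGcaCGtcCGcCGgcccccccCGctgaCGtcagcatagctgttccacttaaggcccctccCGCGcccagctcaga
LDHB, chr12:21657843-21658092, minus strand: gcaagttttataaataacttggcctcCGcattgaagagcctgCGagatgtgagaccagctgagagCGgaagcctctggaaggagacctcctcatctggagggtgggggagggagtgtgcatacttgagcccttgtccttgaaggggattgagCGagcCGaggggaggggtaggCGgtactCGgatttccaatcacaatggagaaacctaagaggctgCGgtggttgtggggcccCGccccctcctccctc
The LDHA window held 22 CG dinucleotides and the LDHB window 9, against a median of 11 over 35116 such windows. At least as many as in LDHA were found in 28.0% of all windows, and at least as many as in LDHB in 54.1%. The letters ACGTG, searched on both strands with overlapping matches counted, occurred 5 times at 3 places in the LDHA window and not in the LDHB window, and 18.5% of all windows held at least 1. A second RefSeq start of LDHA had 25 CG dinucleotides and no ACGTG. Such letters are a description of the window and not evidence of a bound factor.

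LDHB read within the range of the deleted genes or below it in AsPC1 and its derivative and was bright in BxPC3 and its derivative. It read 4.40, 3.94 and 3.98 in AsPC1-R and 4.55, 4.89 and 4.29 in AsPC1. In BxPC3-R it read 13.27, 13.28 and 13.31, and in BxPC3 13.01, 12.95 and 13.08. All 6 arrays of the AsPC1 pair lay within or below the levels at which the deleted SMAD4 read, and the pairs did not overlap. LDHB stood at -8.44 in AsPC1 minus BxPC3 (SE 0.14, 95% interval -8.75 to -8.13, n = 3 each, limma adjusted p = 1.82e-14). By the size of this log2 difference it ranked 1 of 18417 genes. Between the derivatives, AsPC1-R minus BxPC3-R, it stood at -9.18 (SE 0.14, limma adjusted p = 1.04e-14) and again ranked 1. The family was chosen with earlier results of these data known, so these ranks are a description only. Because the AsPC1 side may not be above background, the order of the lines is clear and the size is not. Over all alternative settings, single arrays left out included, the parental difference ran from -8.60 to -8.29.

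LDHA, the A subunit, was bright and nearly flat. It read 12.92, 12.90 and 12.86 in AsPC1-R and 12.89, 12.89 and 12.92 in AsPC1. In BxPC3-R it read 12.76, 12.69 and 12.76, and in BxPC3 12.77, 12.68 and 12.70. All 6 arrays of the AsPC1 pair were above all 6 of the BxPC3 pair, by a small step. LDHA was 0.18 higher in AsPC1 than in BxPC3 (SE 0.07, 95% interval 0.03 to 0.33, limma adjusted p = 0.0424). This call was lost when arrays were centred on their medians (0.14, adjusted p = 0.147) or quantile-normalized once more (0.10, adjusted p = 0.258). It was also lost with only the groups compared (adjusted p = 0.133), and without any one of AsPC1 replicates 1, 2 and 3 or BxPC3 replicates 2 and 3 (adjusted p = 0.0623 to 0.115). The derivatives differed by 0.16 (95% interval 0.01 to 0.31, adjusted p = 0.0863), which did not pass. As a description, log2 LDHA minus log2 LDHB was 8.62 larger in AsPC1 than in BxPC3 and 9.34 larger in AsPC1-R than in BxPC3-R. Nearly all of this is the LDHB difference, whose AsPC1 side may not be above background, so these sizes are as uncertain as that difference.

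LDHC read 5.48, 5.82 and 5.60 in AsPC1-R, 5.01, 5.22 and 5.36 in AsPC1, 3.29, 3.19 and 3.36 in BxPC3-R and 3.20, 3.40 and 3.71 in BxPC3. Every array was under 6.33, so expression of this testis gene above background is not shown for any group. The probe set nevertheless read higher in AsPC1 than in BxPC3, by 1.76 (SE 0.13, limma adjusted p = 6.11e-08), and higher in AsPC1-R than in BxPC3-R, by 2.35 (SE 0.13, adjusted p = 2.88e-09). LDHD ranged from 5.94 to 6.23 over the 12 arrays, also under 6.33 throughout. Its difference of 0.18 between AsPC1 and BxPC3 (95% interval 0.00 to 0.36, adjusted p = 0.0806) did not pass, and neither did that of 0.02 between the derivatives (-0.15 to 0.20, adjusted p = 0.857).

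**Figure D1:**
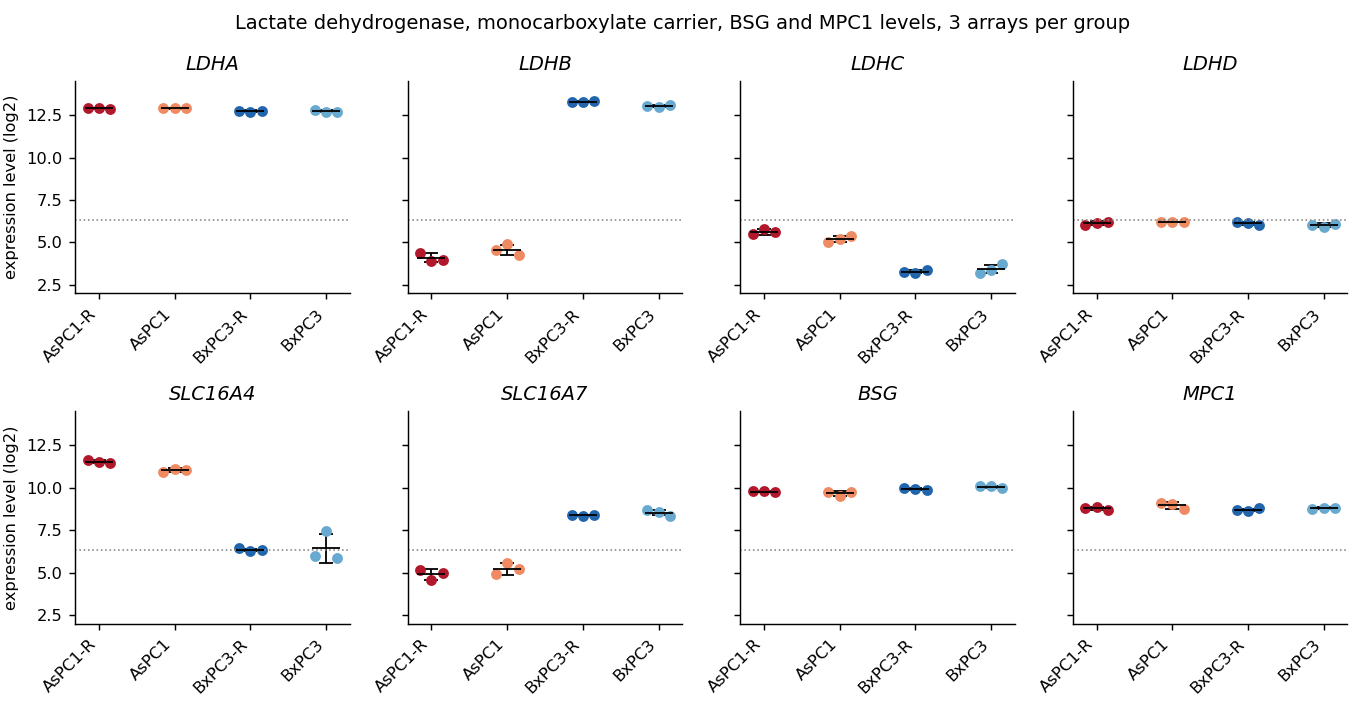
Level (log2) of each of the 8 measured genes on each array, with the 4 groups on the x axis, points for the 3 arrays, a dash for the mean and error bars for the SD. The dotted line is 6.33, the highest reading of the deleted CDKN2A in BxPC3. LDHB and SLC16A7 lie above it only in the BxPC3 pair, and SLC16A4 lies above 10 only in the AsPC1 pair.

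The carriers divided the lines in opposite directions. SLC16A4 (protein MCT5), an orphan member of the family without a settled substrate, is on chromosome 1 at 110362857 to 110391026. SLC16A7 encodes MCT2, a carrier with high affinity for pyruvate and lactate, and is on chromosome 12 at 59596029 to 59789841. The windows before their starts are shown beside those of the dehydrogenases because these carriers had the next largest line differences in the family, with CG again in capitals.
SLC16A4, chr1:110391027-110391276, minus strand: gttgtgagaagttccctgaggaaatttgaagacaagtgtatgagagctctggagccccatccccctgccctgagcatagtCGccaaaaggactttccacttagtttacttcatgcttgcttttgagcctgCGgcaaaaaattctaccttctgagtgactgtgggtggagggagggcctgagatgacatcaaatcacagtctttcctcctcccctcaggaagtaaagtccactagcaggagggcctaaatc
SLC16A7, chr12:59595779-59596028, plus strand: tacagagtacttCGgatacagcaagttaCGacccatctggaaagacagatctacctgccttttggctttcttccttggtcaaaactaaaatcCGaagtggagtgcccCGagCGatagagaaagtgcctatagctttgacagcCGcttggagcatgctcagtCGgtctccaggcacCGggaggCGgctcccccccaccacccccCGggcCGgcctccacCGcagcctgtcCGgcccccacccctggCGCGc
The SLC16A4 window held 2 CG dinucleotides, and 85.3% of all windows held at least as many. The SLC16A7 window held 15, and 42.9% of windows held at least as many, while a second RefSeq start of that gene, not shown, had 1. Neither gene's windows held ACGTG.

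SLC16A4 was a gene of the AsPC1 pair. It read 11.64, 11.53 and 11.43 in AsPC1-R and 10.91, 11.13 and 11.05 in AsPC1. In BxPC3-R it read 6.43, 6.29 and 6.31, and in BxPC3 5.97, 7.43 and 5.88. The value of 7.43 is BxPC3 replicate 2, 1.51 above the mean of the other BxPC3 arrays; without it the BxPC3 level lay under 6.33. SLC16A4 was 4.60 higher in AsPC1 than in BxPC3 (SE 0.29, 95% interval 3.98 to 5.22, limma adjusted p = 8.07e-09) and 5.11 higher without BxPC3 replicate 2 (adjusted p = 5.43e-13). Between AsPC1-R and BxPC3-R, which do not include that array, the difference was 5.19 (SE 0.29, adjusted p = 2.52e-09). Most arrays of the BxPC3 pair read under 6.33, so the size of these differences is uncertain.

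SLC16A7 was a gene of the BxPC3 pair. It read 5.18, 4.55 and 4.99 in AsPC1-R and 4.90, 5.57 and 5.20 in AsPC1. In BxPC3-R it read 8.37, 8.32 and 8.40, and in BxPC3 8.67, 8.55 and 8.35. Both AsPC1-type groups stayed under 6.33 on every array and both BxPC3-type groups above it. The difference was -3.30 in AsPC1 minus BxPC3 (SE 0.17, 95% interval -3.66 to -2.93, limma adjusted p = 8.84e-10) and -3.46 in AsPC1-R minus BxPC3-R (SE 0.17, adjusted p = 6.87e-10), again with an uncertain size.

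BSG, the partner that brings several of these carriers to the membrane, is on chromosome 19 at 571283 to 583493. It read 9.79, 9.80 and 9.73 in AsPC1-R, 9.73, 9.51 and 9.76 in AsPC1, 9.97, 9.95 and 9.84 in BxPC3-R and 10.09, 10.11 and 9.99 in BxPC3. It was lower in AsPC1 than in BxPC3, at -0.40 (SE 0.09, limma adjusted p = 0.00163). The difference of -0.15 between AsPC1-R and BxPC3-R (95% interval -0.33 to 0.04, adjusted p = 0.203) did not pass, although the arrays did not overlap. MPC1, on chromosome 6 at 166364919 to 166382940, ranged from 8.65 to 9.09 over all arrays. It averaged 8.96 ± 0.19 in AsPC1 and 8.79 ± 0.05 in BxPC3 (SD, n = 3 each), and 8.78 ± 0.07 in AsPC1-R and 8.70 ± 0.07 in BxPC3-R. Neither difference passed (0.17, 95% interval -0.04 to 0.38, and 0.08, -0.13 to 0.29). The first of them passed with array weights (0.21, limma adjusted p = 0.0434) and without AsPC1 replicate 3 (0.28, adjusted p = 0.013).

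Of the 8 genes, 3 were higher and 3 lower in AsPC1 than in BxPC3 at an adjusted p under 0.05, where 27.7% of all genes were higher and 22.9% lower. In AsPC1-R minus BxPC3-R 2 were higher and 2 lower, where 21.3% and 22.0% of all genes were. The median difference over the 8 genes was 0.18 between the parental lines and 0.05 between the derivatives, beside 0.11 and 0.03 over all genes. With counts this small the shares do not set the family apart from the array. In order of level, BxPC3-R was above BxPC3, AsPC1 and AsPC1-R for LDHB, and BxPC3 above BxPC3-R, AsPC1 and AsPC1-R for SLC16A7. For SLC16A4 the order was AsPC1-R, AsPC1, BxPC3 and BxPC3-R, and BxPC3-R and BxPC3 overlapped.

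**Figure D2:**
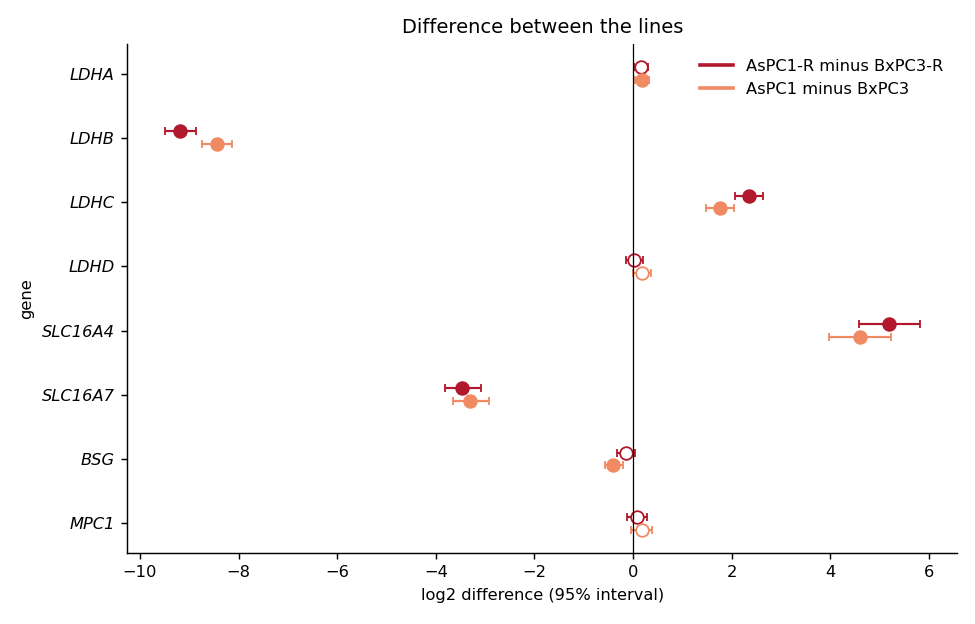
Log2 difference between the lines for each gene, with 95% intervals from limma; AsPC1-R minus BxPC3-R is drawn above AsPC1 minus BxPC3, and filled points passed an adjusted p under 0.05. LDHB, at -9.18 and -8.44, and SLC16A4, at 5.19 and 4.60, lie farthest from 0.

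The genes next to LDHB, SLC16A4 and SLC16A7 differed much less between the lines. The look at chromosomal neighbours was added after these values had been seen. The genes measured on either side of LDHB, GYS2 and KCNJ8, differed by -0.11 and 0.12 in AsPC1 minus BxPC3, and neither passed. Both averaged under 6.33 in AsPC1 and BxPC3, GYS2 at 3.51 and 3.62 and KCNJ8 at 5.38 and 5.26. A small difference at such levels says little about these genes. Over the 10 measured genes on each side of LDHB, 5 were higher and 7 lower in AsPC1, with a median of -0.05. Of all genes 27.7% were higher and 22.9% lower. SLCO1B3, at -5.99, and IRAG2, at -3.99, were the lowest of these neighbours. RBM15 and LAMTOR5, next to SLC16A4, differed by -0.04 and 0.07, and neither passed. The 20 neighbours of SLC16A4 ranged from -2.80 to 3.31. LRIG3 and TAFA2, next to SLC16A7, differed by -0.30, which passed (limma adjusted p = 0.00845), and -0.07, which did not. TAFA2 averaged 4.48 in AsPC1 and 4.54 in BxPC3, also under 6.33. The 20 neighbours of SLC16A7 ranged from -0.62 to 0.63.

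**Figure D3:**
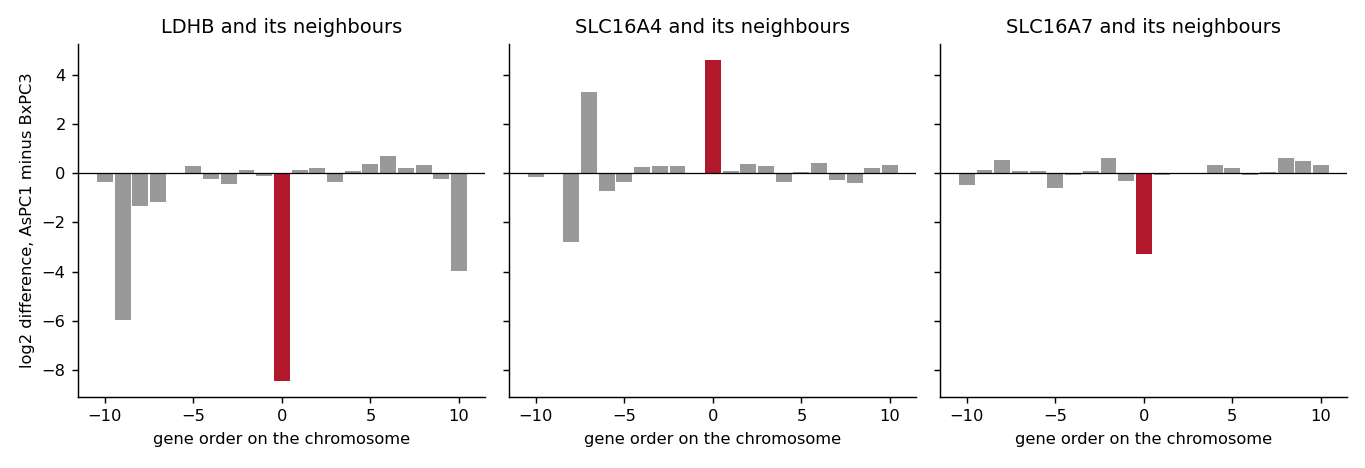
Log2 difference, AsPC1 minus BxPC3, of LDHB, SLC16A4 and SLC16A7 (red, at 0 on the x axis) and of the 10 measured genes on each side (grey) in chromosomal order. The adjacent bars lie between -0.30 and 0.12, while the red bars stand at -8.44, 4.60 and -3.30. The adjacent genes GYS2, KCNJ8 and TAFA2 averaged under 6.33 in both lines.

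The genes most like these 3 over the 12 arrays, by Pearson's r, also split the lines. For LDHB they were NETO2 (r = 0.9992), KRT5 (0.9989) and GIMAP4 (0.9984). NETO2 averaged 4.62 in AsPC1-R, 4.77 in AsPC1, 11.84 in BxPC3-R and 11.46 in BxPC3. For SLC16A4 they were PSAP (0.9977), ZEB1 (0.9968) and SMURF1 (0.9958), and for SLC16A7 SDR42E1 (0.9972), FLI1 (0.9966) and ZNF331 (0.9956). The values of each of these genes fall into 2 clusters by line, so such an r describes little more than which line was high.

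The comparison of AsPC1-R with AsPC1 asks what differs in cells made resistant to cisplatin. Of the 8 genes 2 passed, both at low levels. LDHB fell to 4.11 ± 0.26 in AsPC1-R, against 4.58 ± 0.30 in AsPC1 (SD, n = 3 each; log2 change -0.47, SE 0.14, limma adjusted p = 0.0332). The arrays overlapped, and both means are under 6.33. LDHC rose to 5.63 ± 0.17 in AsPC1-R, against 5.20 ± 0.17 in AsPC1 (log2 change 0.44, SE 0.13, adjusted p = 0.0307), also under 6.33. Both calls were lost without AsPC1 replicate 1 (adjusted p = 0.0698 for LDHB and 0.122 for LDHC), AsPC1 replicate 2 (0.133 and 0.0578), AsPC1-R replicate 2 (0.135 and 0.135) or AsPC1-R replicate 3 (0.116 and 0.0633). The LDHB call was also lost with only the groups compared (limma adjusted p = 0.1), array weights (0.0716) or quantile normalization once more (0.065). Over all 18417 genes 11.6% rose and 8.64% fell in this comparison, so 1 rise and 1 fall among 8 genes is near the background.

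Among the genes well above 6.33, SLC16A4 had the largest estimate in AsPC1-R, 0.51 (SE 0.29, 95% interval -0.11 to 1.13, limma adjusted p = 0.251). All 3 AsPC1-R arrays were above all 3 AsPC1 arrays. It did not pass in the fit over 4 groups, whose shared spread includes BxPC3 replicate 2, and it passed when only AsPC1-R and AsPC1 were fitted (adjusted p = 0.00864). LDHA stood at -0.00 (95% interval -0.15 to 0.15), BSG at 0.11 (-0.08 to 0.29) and MPC1 at -0.18 (-0.39 to 0.03), none of which passed. MPC1 passed without AsPC1 replicate 3 (-0.29, adjusted p = 0.025).

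In BxPC3-R against BxPC3, 0 of the 8 genes passed by limma, and 0 had an unadjusted p under 0.05, where 9.75% of all genes rose and 11.0% fell. LDHB averaged 13.29 ± 0.02 in BxPC3-R and 13.01 ± 0.06 in BxPC3 (SD, n = 3 each). Its change of 0.27 (95% interval -0.03 to 0.58, adjusted p = 0.224) did not pass, though the arrays did not overlap, and it passed when only BxPC3-R and BxPC3 were fitted (adjusted p = 0.0246). SLC16A4 stood at -0.08 (-0.70 to 0.54, adjusted p = 0.893) with all arrays. Without BxPC3 replicate 2 the sign turned and the gene passed, at 0.42 (adjusted p = 0.0105), from a level under 6.33. The estimates were 0.02 for LDHA (-0.13 to 0.17), -0.14 for BSG (-0.33 to 0.04), -0.16 for SLC16A7 (-0.52 to 0.20) and -0.09 for MPC1 (-0.29 to 0.12).

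The change in AsPC1-R minus the change in BxPC3-R tests whether these changes differ. It passed for LDHB, at -0.74 (SE 0.20, 95% interval -1.18 to -0.31, limma adjusted p = 0.0149), and for LDHC, at 0.59 (SE 0.19, 0.19 to 1.00, adjusted p = 0.031), 1 gene in each direction, where 14.1% of all genes were positive and 11.3% negative. The LDHB difference passed under each leave-one-out and was lost only at a threshold of 0.01. LDHB is under 6.33 on every AsPC1-R and AsPC1 array, so the size of this difference is uncertain. The LDHC difference was lost in 6 of the 12 fits with 1 array left out, and its levels are under 6.33 throughout. For LDHA, the interval of the difference was -0.24 to 0.19. SLC16A4 stood at 0.59 (SE 0.41, 95% interval -0.29 to 1.47, limma adjusted p = 0.325) and did not pass. Over the alternatives its estimate ran from 0.09 to 0.87, and it passed in none of them.

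**Figure D4:**
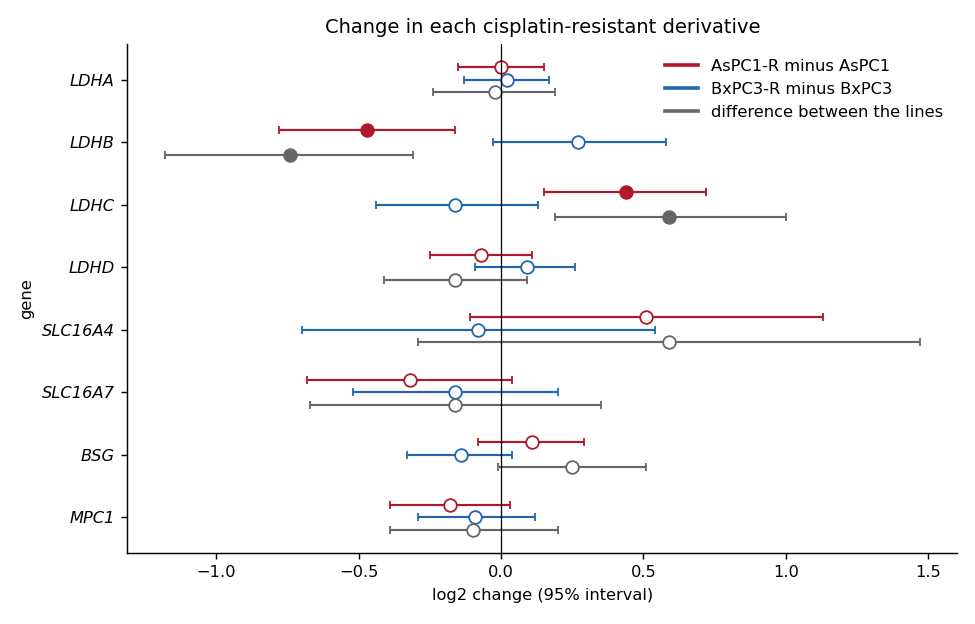
Log2 change of each gene in AsPC1-R minus AsPC1 (red), in BxPC3-R minus BxPC3 (blue) and the difference between these changes (grey), with 95% intervals from limma; filled points passed an adjusted p under 0.05. Filled points appear for LDHB, at -0.47 and -0.74, and LDHC, at 0.44 and 0.59, and every LDHA interval lies within 0.24 of 0.

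Several genes of the surrounding pathways had larger changes than any of the 8 genes. Of those named below, SLC2A1, PDP1, ME1, EGLN3, INSIG2, CA2 and CA13 rose in AsPC1-R and fell in BxPC3-R, while PDK1 fell in both. The genes were named for the size of their called changes. Of the listed genes not named below, BNIP3L also rose in AsPC1-R (0.25) and fell in BxPC3-R (-0.71). GPI passed the other way, at -0.27 in AsPC1-R and 0.32 in BxPC3-R. The share of all genes with opposite calls was not counted. Counts are over the genes of each list measured on the array. Of 18 glycolysis and glucose uptake genes, 4 rose and 1 fell in AsPC1-R, where 11.6% of all genes rose and 8.64% fell (median 0.07, against -0.05 over all genes). PFKFB3, which makes the activator of phosphofructokinase, rose to 9.08 in AsPC1-R against 7.94 in AsPC1 (log2 change 1.15, SE 0.09, limma adjusted p = 5.56e-07). ENO2 rose by 0.69 (SE 0.12), the glucose transporter gene SLC2A1 by 0.62 (0.10) and pyruvate kinase PKM by 0.42 (0.10). In BxPC3-R 3 of the 18 rose and 4 fell, where 9.75% of all genes rose and 11.0% fell (median -0.07, against 0.02), or 1 and 3 without BxPC3 replicate 2. The aldolase gene ALDOC fell to 7.04 in BxPC3-R against 8.28 in BxPC3 (-1.24, SE 0.09), the hexokinase genes HK2 and HK1 stood at -0.66 (0.12) and -0.44 (0.10), and SLC2A1 at -0.35 (0.10). The change of SLC2A1 in AsPC1-R minus its change in BxPC3-R was 0.98 (SE 0.14, limma adjusted p = 0.00013).

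At the entry of pyruvate into the mitochondrion, 3 of 13 genes rose and 3 fell in AsPC1-R (median -0.00), where 11.6% and 8.64% of all genes did. In BxPC3-R 0 rose and 5 fell (median -0.14), or 0 and 3 without BxPC3 replicate 2, where 9.75% and 11.0% of all genes rose and fell. PDP1, the phosphatase that activates pyruvate dehydrogenase, rose to 11.06 in AsPC1-R against 9.35 in AsPC1 (1.70, SE 0.11, limma adjusted p = 5.60e-08). In BxPC3-R it fell to 10.30 against 11.26 in BxPC3 (-0.96, SE 0.11). The difference between these changes was 2.66 (SE 0.15, limma adjusted p = 1.93e-08). Of the kinases that inhibit the same complex, PDK3 rose by 0.69 (0.09) in AsPC1-R. PDK1 fell in both derivatives, at -0.52 (0.08) in AsPC1-R and -0.35 (0.08, limma adjusted p = 0.00655) in BxPC3-R. PDK2 and PDK4 stood at -0.66 (0.17) and -0.39 (0.11) in BxPC3-R. The E1 subunit gene PDHB stood at -0.56 (0.15) there. MPC2, the partner of MPC1, fell in AsPC1-R, to 10.17 against 10.64 in AsPC1 (-0.47, SE 0.10, adjusted p = 0.00299).

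Among 10 other carriers and partners, 1 rose and 0 fell in AsPC1-R (median -0.08), and 1 rose and 1 fell in BxPC3-R (median -0.03), or 1 and 0 without BxPC3 replicate 2. These shares are near those of all genes, of which 11.6% rose and 8.64% fell in AsPC1-R and 9.75% rose and 11.0% fell in BxPC3-R. EMB, the partner of MCT2, rose to 8.91 in AsPC1-R against 7.84 in AsPC1 (1.07, SE 0.15, limma adjusted p = 0.000145). HCAR1, a receptor for lactate, rose to 8.00 in BxPC3-R against 7.26 in BxPC3 (0.74, SE 0.15, adjusted p = 0.00223), and SLC16A5 stood at -0.34 (0.09). Of 11 other enzymes of pyruvate, malate and alanine, 1 rose and 1 fell in AsPC1-R (median -0.06), again near the background, namely ME1, encoding malic enzyme, at 1.68 (0.09) and the aspartate aminotransferase gene GOT1 at -0.46 (0.11). In BxPC3-R 0 rose and 1 fell (median -0.16), ME1 at -0.34 (0.09).

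Of 19 hypoxia response genes outside glycolysis, regulators such as HIF1A and VHL included, 5 rose and 1 fell in AsPC1-R (median 0.06, against -0.05 over all genes). In BxPC3-R 0 rose and 10 fell (median -0.25, against 0.02), or 0 and 8 without BxPC3 replicate 2. EPAS1, ARNT and VHL were among the 10 that fell. ADM, ANKRD37, ANGPTL4, P4HA1 and BNIP3 had estimates of 0.04 to 0.12 there and did not pass. Over all genes 11.6% rose and 8.64% fell in AsPC1-R, and 9.75% rose and 11.0% fell in BxPC3-R. The change in AsPC1-R minus the change in BxPC3-R passed for 10 of the 19 genes, all positive. It passed for 10, all positive, without BxPC3 replicate 2. In that test 14.1% of all genes were positive and 11.3% negative. EGLN3, an oxygen-dependent hydroxylase that marks HIF subunits for breakdown and is itself induced by HIF, rose by 0.46 (SE 0.13) in AsPC1-R and fell to 7.47 in BxPC3-R against 9.07 in BxPC3 (-1.60, SE 0.13, limma adjusted p = 1.02e-06). HIF1A and VEGFA rose by 0.65 (0.12) and 0.34 (0.08) in AsPC1-R. INSIG2 rose by 0.56 (0.11) in AsPC1-R and fell in BxPC3-R (-0.73, SE 0.11, limma adjusted p = 0.000371). NDRG1, MXI1 and DDIT4 stood at -1.18 (0.10), -0.86 (0.11) and -0.77 (0.13) in BxPC3-R. LDHA, itself a textbook HIF target, stood at -0.00 and 0.02 in the same fit. Whether HIF took part in any of these changes was not tested.

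Carbonic anhydrases interconvert carbon dioxide and bicarbonate and so buffer protons such as those that leave with lactate. The largest changes named from the 6 lists were among them. Of 8 genes of this list 2 rose and 0 fell in AsPC1-R (median -0.01), where 11.6% and 8.64% of all genes did, and 1 rose and 3 fell in BxPC3-R (median 0.07), where 9.75% and 11.0% did. CA2 rose to 9.48 in AsPC1-R against 7.13 in AsPC1 (2.35, SE 0.16, limma adjusted p = 1.42e-07) and fell to 6.95 in BxPC3-R against 8.83 in BxPC3 (-1.88, SE 0.16, adjusted p = 1.73e-06). CA13 rose by 1.72 (0.10), from a level under 6.33 in AsPC1, and stood at -1.14 (0.10) in BxPC3-R. The differences between the changes in AsPC1-R and BxPC3-R were 4.23 (SE 0.22) for CA2 and 2.85 (0.14) for CA13. The bicarbonate cotransporter gene SLC4A4 stood at -0.70 (0.14) and CA12 at 0.57 (0.11) in BxPC3-R. SLC4A4 averaged 5.60 in BxPC3-R and 6.31 in BxPC3, both under 6.33, so the size of its change is uncertain.

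**Figure D5:**
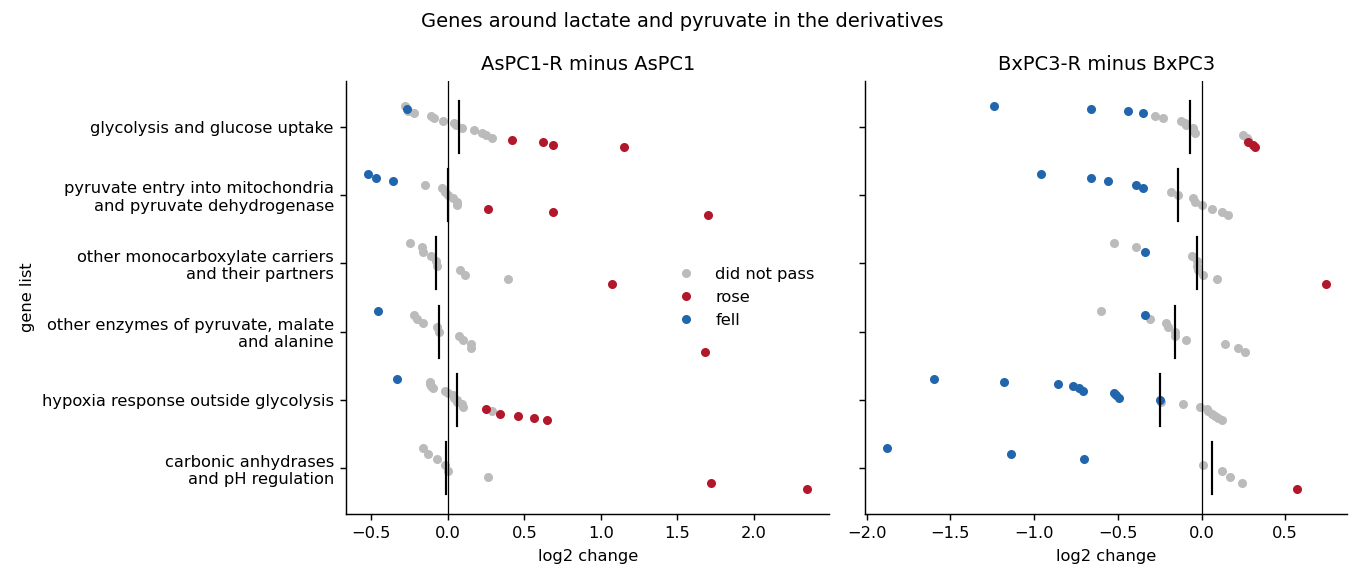
Log2 change of each measured gene of the 6 lists, with AsPC1-R minus AsPC1 on the left and BxPC3-R minus BxPC3 on the right; red and blue points rose and fell at an adjusted p under 0.05, grey points did not pass, and black lines are list medians. The hypoxia list has a median of 0.06 on the left and -0.25 on the right, and CA2 is the farthest point on each side, at 2.35 and -1.88.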

How the data were processed

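Levels of RNA were read on Affymetrix arrays in 12 samples, 1 array each, after NuGEN amplification of total RNA per the labels' protocols. The deposited values are log2 levels per probe set, made with Affymetrix Expression Console and RMA per the submitters' processing notes; RMA corrects background, quantile-normalizes arrays and summarises probes. Their versions are not given in those notes. Of 33297 probe sets, 19460 had 1 gene symbol, 1754 had several and 12083 were not listed in the probe annotation; for genes with several probe sets the one with the highest mean over the arrays was used, which left 18417 genes. Of these, 18389 matched RefSeq (GRCh38.p14) by gene number, used for position and gene order.

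Contrasts were fitted in R 4.3.3 by limma 3.58.1 (lmFit and eBayes on all 12 arrays, 4 group means, 8 residual and 5.47 prior degrees of freedom), two-sided, with Benjamini-Hochberg adjustment over all genes and calls at an adjusted p under 0.05. The script was tested on simulated data. No gene was filtered out. The genes named are the members, up to 4 called genes per list and derivative with the largest change, the 3 genes most like each of the 3 members with the widest range of group means, and SMAD4 and CDKN2A; neighbours were added later. The members and the 6 lists (79 of 89 genes measured) were chosen with earlier results of these data known. Alternatives were a stricter threshold of 0.01, array weights, a mean over each gene's probe sets, trend and robust options of eBayes, fits to only the groups compared, another quantile normalization, median centring, leaving out dim genes, a replicate block, and leaving out each array in turn.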

Additional observations from a re-analysis of the deposited data

Results flagged for a closer look

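The change in the derivative differed between the lines for LDHB, by -0.74 (AsPC1-R minus AsPC1, less BxPC3-R minus BxPC3; limma adjusted p = 0.0149). The arrays of AsPC1-R and AsPC1 overlapped, while all 3 BxPC3-R arrays were above all 3 BxPC3 arrays. The AsPC1 side of this difference lies under 6.33, the highest reading of a deleted gene, and the part of background signal in it was not tested. LDHC differed in the same test by 0.59 (adjusted p = 0.031), with every array under 6.33. Groups of 3 arrays were not searched for single outlying values.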

How the results depend on the processing

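Over all alternatives the line differences of LDHB, SLC16A4, SLC16A7 and LDHC kept their direction and their calls, and BSG did so between the parental lines. The counts of all genes called fell to 2279 in AsPC1-R and 2495 in BxPC3-R at an adjusted p under 0.01. At that threshold the difference between the changes in AsPC1-R and BxPC3-R passed for 2998 genes. The count in BxPC3-R was 6356 with array weights. Of the 8 genes, the 2 called in AsPC1-R became 0 at an adjusted p under 0.01 and 1 with dim genes left out, with quantile normalization once more and with array weights, and 0 to 3 with single arrays left out. With only the groups compared, 2 were called in AsPC1-R, but they were LDHC and SLC16A4. The 0 in BxPC3-R became 1 with array weights (LDHC) and with only the groups compared (LDHB), and ranged from 0 to 1 with single arrays left out. The 2 called for the difference between the changes became 0 at an adjusted p under 0.01 and 1 with dim genes left out. With single arrays left out there were 1 to 2. Dim genes left out means fewer genes tested, and LDHC and LDHD are among those removed; for the other settings the cause was not tested. Signs turned for estimates near 0. LDHA in AsPC1-R became 0.03 with quantile normalization or median centring and 0.01 with array weights, and ranged from -0.02 to 0.01 with single arrays left out. LDHA became -0.02 in BxPC3-R and 0.05 for the difference between the changes with quantile normalization. SLC16A4 in BxPC3-R became 0.25 with array weights and ranged from -0.36 to 0.42 with single arrays left out. SLC16A7 ranged from -0.32 to 0.02 for the difference between the changes. LDHD between the derivatives became -0.01 with quantile normalization or median centring and -0.02 with array weights, and ranged from -0.02 to 0.08. With the replicate number as a block, 3553 genes were called in AsPC1-R and 3661 in BxPC3-R, and of the members LDHA between the parental lines was lost (adjusted p = 0.0609). Same-numbered arrays did not deviate together (r of -0.24 to 0.17 over the pairs), so the numbers are not taken to pair the samples.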
